A study of Mus musculus with 2 samples.

Results

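The genes described here encode the proteins of the mitochondrial ribosome. They were taken as every gene column whose symbol is Mrpl or Mrps followed by a digit, pseudogenes marked -ps left out, in the count tables of both libraries. The rule found 77 genes among the 24393 columns that the tables share, 48 of them named Mrpl and 29 named Mrps. A further column, Mrpl53, was in the hypoxia table alone with 1 molecule and was left out. Lineage-depleted bone marrow of ICR mice aged 7 to 8 weeks was captured as single cells on the BD Rhapsody platform. Mice of the hypoxia group had lived for 13 days in a chamber held at 52.93 kPa, the pressure at 5000 m, with oxygen at 19.5%, and control mice were killed when they reached Xining. Each group gave 1 library, the number of mice was not given in the sources used here, and the control was not kept alongside for the same time. There is therefore no replicate, no test was possible, and exposure cannot be told apart from time, age, handling or library. The comparison asks how blood stem and progenitor cells differ after hypoxia.

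Mitochondria translate their own small genome on a dedicated ribosome, whose large and small subunits carry an RNA from that genome and proteins that are all encoded in the nucleus, made in the cytosol and imported. Its products are core subunits of the respiratory chain and of ATP synthase, so oxidative phosphorylation needs both genomes. Some of its proteins descend from bacterial ribosomal proteins and others are found only in mitochondria. In red cell development, mitochondria also house steps of heme and iron-sulfur cluster synthesis, and they are cleared before the red cell matures. Of the 77 genes, 50 encode large-subunit proteins, including Mrps18a and Mrps30, which keep a small-subunit name but sit in the large subunit. Another 26 encode small-subunit proteins. Mrps36 is set apart, since its product is now known as a subunit of the 2-oxoglutarate dehydrogenase complex of the citric acid cycle.

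The promoters of 6 genes on which the results turn are shown first: Mrpl34, Mrps12 and Mrps24, lower in the hypoxia library in every class with member counts, Mrps9 and Mrps11, among the highest ratios in CFU-E-stage cells, and Mrps36, with the largest rise along the erythroid stages. RefSeq (GRCm38.p6) promoters run from 250 bases before to 50 bases after the start site, are written 5′ to 3′ on the gene's strand, and were matched for 68 of the 77 genes. The windows are chr8:71464676-71464975 (plus strand), chr7:28741772-28742071 (minus), chr11:5707652-5707951 (minus), chr1:42850983-42851282 (plus), chr7:78782881-78783180 (plus) and chr13:100744610-100744909 (minus). Capitals mark, on either strand, the core letters searched for 3 factor families known to act on nuclear genes of mitochondrial proteins: CCGGAAG for ETS factors such as GABP, GCATGCG for NRF1 and AAGATGG for YY1, which do not overlap one another in these 6 windows.
Mrpl34: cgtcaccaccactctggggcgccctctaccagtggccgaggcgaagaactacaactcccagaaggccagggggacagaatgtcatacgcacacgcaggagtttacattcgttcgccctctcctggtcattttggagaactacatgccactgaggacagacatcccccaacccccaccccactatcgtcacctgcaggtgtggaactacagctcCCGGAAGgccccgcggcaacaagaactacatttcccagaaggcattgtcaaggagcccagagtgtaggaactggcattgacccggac
Mrps12: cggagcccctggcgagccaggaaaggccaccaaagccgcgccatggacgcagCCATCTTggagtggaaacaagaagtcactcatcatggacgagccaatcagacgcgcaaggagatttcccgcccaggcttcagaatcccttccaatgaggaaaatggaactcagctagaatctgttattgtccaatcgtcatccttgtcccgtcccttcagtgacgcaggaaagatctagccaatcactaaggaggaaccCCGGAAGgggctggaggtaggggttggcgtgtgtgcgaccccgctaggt
Mrps24: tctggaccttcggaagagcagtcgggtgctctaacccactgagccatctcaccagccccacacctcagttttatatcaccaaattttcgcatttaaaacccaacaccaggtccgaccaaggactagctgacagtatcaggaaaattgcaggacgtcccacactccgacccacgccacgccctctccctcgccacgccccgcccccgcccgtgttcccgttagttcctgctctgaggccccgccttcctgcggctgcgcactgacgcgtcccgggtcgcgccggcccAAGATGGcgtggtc
Mrps9: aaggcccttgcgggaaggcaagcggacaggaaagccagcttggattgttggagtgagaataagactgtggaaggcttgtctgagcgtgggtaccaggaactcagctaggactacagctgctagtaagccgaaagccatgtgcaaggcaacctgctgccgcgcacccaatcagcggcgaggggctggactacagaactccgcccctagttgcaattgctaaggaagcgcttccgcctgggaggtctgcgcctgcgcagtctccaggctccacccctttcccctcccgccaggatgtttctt
Mrps11: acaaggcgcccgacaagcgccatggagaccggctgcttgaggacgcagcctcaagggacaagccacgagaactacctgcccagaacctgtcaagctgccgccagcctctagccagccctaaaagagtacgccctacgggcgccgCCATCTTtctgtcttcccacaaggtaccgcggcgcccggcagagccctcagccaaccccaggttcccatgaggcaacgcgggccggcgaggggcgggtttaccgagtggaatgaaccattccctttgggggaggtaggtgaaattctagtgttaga
Mrps36: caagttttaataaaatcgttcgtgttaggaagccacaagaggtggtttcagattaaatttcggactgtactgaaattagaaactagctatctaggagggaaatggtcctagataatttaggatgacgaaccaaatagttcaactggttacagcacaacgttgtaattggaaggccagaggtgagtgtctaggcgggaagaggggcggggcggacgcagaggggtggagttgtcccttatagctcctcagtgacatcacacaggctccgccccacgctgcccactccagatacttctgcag

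The ETS letters stood in 24 of the 68 promoters (35.3%), against 20.3% of the 8892 promoters of genes with at least 50 molecules in CFU-E-stage cells and 9.12% of all 27025 promoters. The YY1 letters stood in 13 (19.1%, against 7.84% and 6.48%) and the NRF1 letters in 8 (11.8%, against 7.16% and 3.64%). At least 1 of the 3 was found in 36 member promoters (52.9%, against 31.5% and 17.7%). Other lists held the letters too, at shares above or below those of the members. The ETS letters stood in 38.3% of 60 cytosolic ribosomal protein and 23.1% of 65 nuclear oxidative phosphorylation promoters. The NRF1 letters stood in 6.67% and 15.4%, and the YY1 letters in 15% and 13.8%. The letters are thus not particular to the members. Among the promoters printed, Mrpl34 and Mrps12 hold the ETS letters, and Mrps12, Mrps24 and Mrps11 the YY1 letters. None of the 3 was found in the windows of Mrps9 or Mrps36. The match is one of letters only, and member promoters were slightly poorer in G and C than those of the genes measured in CFU-E-stage cells (medians 58.2% and 61.0%). The 24 members with the ETS letters had a median log2 ratio of hypoxia over control of -0.25 in CFU-E-stage cells, and the 44 without had -0.17. For the NRF1 letters the medians were -0.19 with and -0.22 without, and for the YY1 letters -0.22 and -0.16.

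The libraries differed in depth and make-up. After filtering, 6280 hypoxia cells with a median of 21344.5 unique molecules (UMIs) and 3917 control cells with a median of 32156 remained. Cells were put into classes by marker gates, and 11 classes had at least 50 cells in each library. The samples are labelled as stem and progenitor cells, and the largest class was CFU-E-stage erythroid cells, named for the colony-forming erythroid progenitor. They were gated on Klf1 and Car1 with Gata2 and globins low (2029 hypoxia and 1770 control cells, 32.3% and 45.2% of cells kept). All 7 erythroid progenitor markers had a per-cell median above 0 there in both libraries. Stem and multipotent progenitor cells (HSC/MPP, gated on Hlf) numbered 158 and 135, and 4 and 5 of their 7 markers had a median above 0. Granulocyte progenitor markers also reached 2270 CPM there in the hypoxia library and 2222 CPM in the control, and 2 of 4 had a median above 0 in both. Basophil and mast markers summed to 589.6 CPM (hypoxia) and 221 CPM (control) in HSC/MPP cells and to 568 and 249 CPM in early erythroid cells, and erythroblast markers to 116 and 12.04 CPM in HSC/MPP cells. None of these basophil, mast or erythroblast markers had a per-cell median above 0 in the hypoxia cells of those classes, and the part of such cells in the member values was not tested. The tables shared 23 cell indices, of which 6 fell in the same class, and leaving these cells out moved no result beyond its tolerance. Genes of the immediate-early and heat-shock response summed to between 0.310 and 0.720 times the control level in the hypoxia library in the 10 classes with member counts. Their part in the results below was not tested.

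Levels are given as CPM, the UMIs of a gene per 1000000 UMIs of the class, with UMIs summed over its cells. CPM is a share, so it does not measure the number of molecules per cell. Intervals are exact 95% Poisson intervals that cover counting error only. Summed over the 77 genes, the hypoxia library was lower than the control in all 11 classes, except that megakaryocyte-lineage cells went the other way when cells were weighted equally. In CFU-E-stage cells the genes together made 6415 CPM in the hypoxia library and 7316 CPM in the control, a ratio of 0.877 (0.873 to 0.881). Cells at globin onset gave 6045 and 6848 CPM (ratio 0.883), and globin-high cells 4930 and 5783 CPM (0.853). Early erythroid cells, which still express Gata2, gave 4107 and 4826 CPM (0.851, from 65 and 90 cells). The 4 erythroid stages thus had the lowest ratios of the 11 classes.

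Outside the erythroid lineage the ratios lay closer to 1. The genes summed to 3912 and 4187 CPM in HSC/MPP cells (ratio 0.934, 0.903 to 0.966, and 0.972 within cells of 10000 to 40000 UMIs) and to 3724 and 4049 CPM in lymphoid-primed cells (0.920). Granulocyte progenitors had 4988 and 5283 CPM (0.944), monocyte-lineage cells 4571 and 4741 CPM (0.964), and basophil and mast cells 2942 and 3048 CPM (0.965). Megakaryocyte-lineage cells had 5014 and 5253 CPM (0.955), but the mean of per-cell CPM gave 1.14. This class was uneven, since the 25th percentile of its control cells was 975.4 CPM and the median 4765 CPM. Neutrophil-lineage cells had the lowest levels, 1746 and 1802 CPM, and the hypoxia cells had a median of 2819 UMIs, so only 2 members reached 50 UMIs and they are not described gene by gene.

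**Figure D1:**
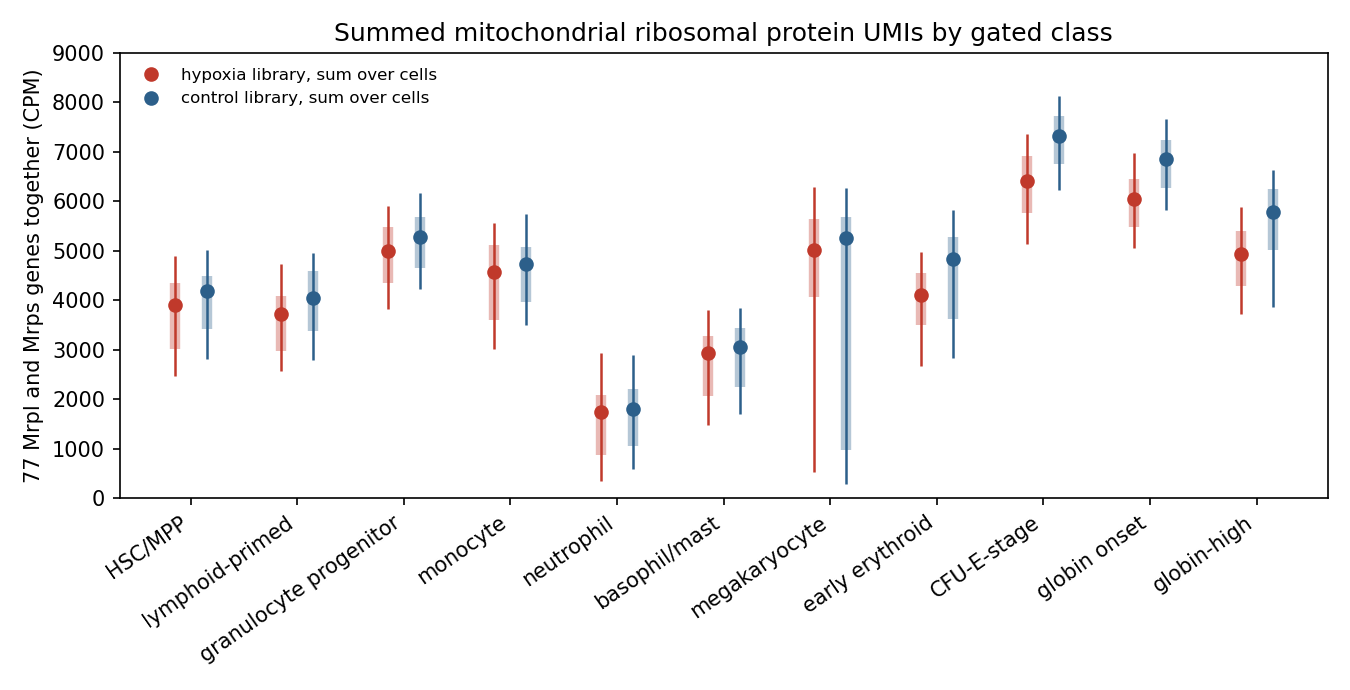
Summed CPM of the 77 genes in each of the 11 classes, for the hypoxia library (red) and the control (blue). Points are sums over the cells of the class, thick bars span the 25th to 75th and thin bars the 10th to 90th percentile of single cells, and the points are highest in CFU-E-stage cells, at 6415 and 7316 CPM.

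The order of the classes was nearly the same in both libraries. CFU-E-stage cells had rank 1, globin onset rank 2 and granulocyte progenitors rank 4 in both, and HSC/MPP, lymphoid-primed, basophil and mast, and neutrophil-lineage cells took the last 4 places in that order. Megakaryocyte-lineage cells had rank 3 in the hypoxia library and rank 5 in the control, and globin-high cells the reverse. Hypoxia-library CFU-E-stage cells (6415 CPM) were above control globin-high cells (5783 CPM). CFU-E-stage and globin onset cells of a library were closer to each other than the libraries were at either stage.

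Depth moved with the level. Within CFU-E-stage cells the summed level was higher in deeper cells of both libraries, from 5489 CPM (hypoxia) and 6098 CPM (control) at 10000 to 20000 UMIs to 6743 and 7426 CPM at 40000 to 60000 UMIs. In the 4 bins from 10000 to 60000 UMIs the hypoxia level was 0.900, 0.937, 0.930 and 0.908 times that of the control. Over cells of 10000 to 40000 UMIs the CFU-E-stage ratio was 0.914 in place of 0.877, and at globin onset it was 0.914 in place of 0.883. Below 10000 UMIs the order was the reverse, with 4990 and 3673 CPM, but the control had 6 such cells. From 60000 to 100000 UMIs, with 13 hypoxia and 140 control cells, the ratio was 0.877, as in the whole class. The hypoxia level was thus lower in each bin from 10000 UMIs up, and closer to the control than in the whole class in the 4 bins up to 60000.

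**Figure D2:**
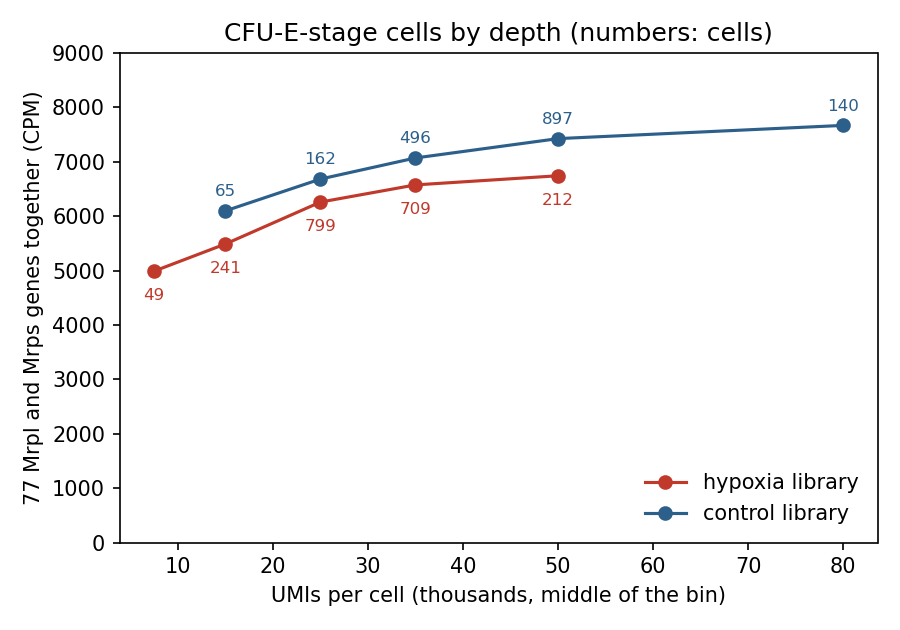
Summed CPM of the 77 genes in CFU-E-stage cells (y axis) against UMIs per cell (x axis), with the number of cells beside each point and bins under 20 cells left out. Hypoxia points (red) lie below control points (blue) in each of the 4 bins that both libraries fill.

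Gene by gene, a log2 ratio was taken with 10 CPM added to both sides, and a gene counted as higher or lower when that ratio reached 1.2-fold. Genes with under 50 UMIs over both libraries in a class were not counted. In CFU-E-stage cells all 77 members were measured, and 25 were lower (32.5%) against 8.8% of the 11509 genes measured, while 2 were higher against 15%. Their median log2 ratio was -0.16. Scaling by TMM factors moved the split of all genes in these cells to 12.8% lower and 10.8% higher, and of the members 37 were then lower and 1 higher. Within cells of 10000 to 40000 UMIs, 18 members were lower, against 9.98% of all genes. In globin onset cells 25 of 77 were lower (11.8% of all genes) and 2 higher (17.6%), and TMM factors gave 30 (14.8%) and 1 (14.6%). In globin-high cells 30 of 77 were lower (15.2%) and 0 higher (22.7%). Early erythroid cells, where 69 members were measured, had 36 lower (24.6%) and 4 higher (23.2%), with the lowest median of the classes, -0.27. Over all genes measured, the median log2 ratio stayed between -0.0057 and 0.045 in the 10 classes.

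The other classes showed smaller shares of lower members. Of 76 members measured in HSC/MPP cells, 23 were lower (18.2% of all genes) and 7 higher (20.6%), with a median log2 ratio of -0.13. Within cells of 10000 to 40000 UMIs this came to 16 of 75 lower against 20.1% of all genes, a share near that of all genes. Lymphoid-primed cells had 19 of 76 lower (16.5%) and 3 higher (22.0%), and granulocyte progenitors 15 of 77 lower (9.38%) and 3 higher (12.7%). Monocyte-lineage cells had 18 of 77 lower (14.7%) and 6 higher (21.8%). In basophil and mast cells 14 of 76 members were lower (17.2%) and 4 higher (19.9%), so the share of lower members was near that of all genes. In megakaryocyte-lineage cells 15 of 77 were lower (17.4%) and 10 higher (19.7%), but the mean of per-cell CPM turned this to 3 lower and 27 higher, with a median of 0.15 in place of -0.018. The share of all genes was not computed with that mean, so whether the turn is particular to the members is not known. Past 1.5-fold there were few: in CFU-E-stage cells 3 members were lower (1.28% of all genes) and 0 higher (2.29%), and in HSC/MPP cells 2 were lower (3.45%) and 1 higher (3.74%). Early erythroid cells had 5 lower (7.3%) and 1 higher (6.87%), globin onset 3 lower (1.73%) and 0 higher (2.46%), and globin-high cells 2 lower (2.59%) and 0 higher (4.52%).

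**Figure D3:**
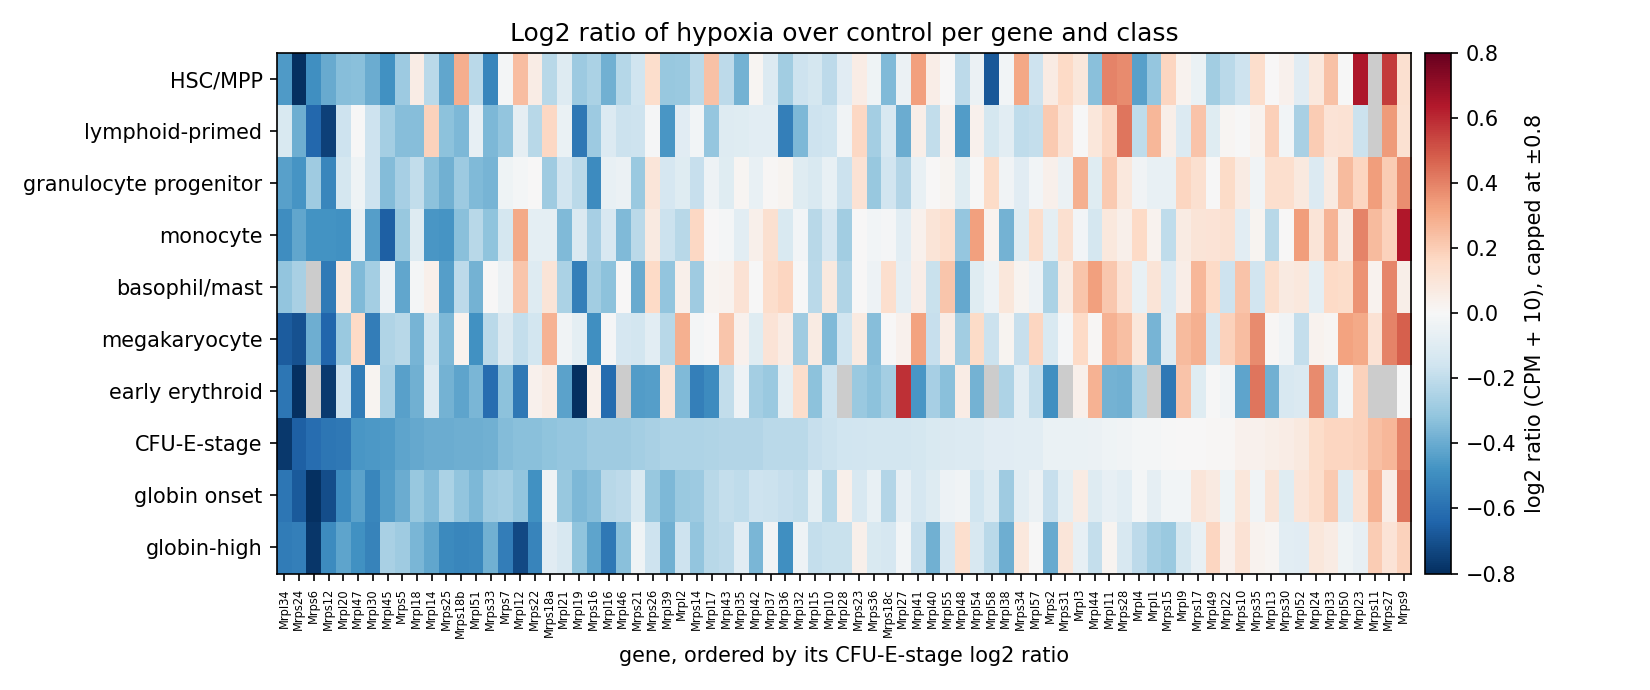
Log2 ratio of hypoxia over control (CPM + 10, colour, capped at 0.8 in both directions) for each of the 77 genes (columns, ordered by their CFU-E-stage ratio) in 10 classes (rows). Blue is lower and red higher in the hypoxia library, grey cells had under 50 UMIs, and Mrpl34, Mrps24 and Mrps12 at the left are blue in all 10 rows.

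Both subunits were lower in CFU-E-stage cells. Large-subunit genes summed to 4313 CPM (hypoxia) and 4891 CPM (control; ratio 0.882, 0.877 to 0.886), with 14 of 50 lower and 0 higher, where 8.8% of all genes were lower and 15% higher. Small-subunit genes summed to 2012 and 2322 CPM (0.866, 0.860 to 0.873), with 11 of 26 lower and 2 higher. Genes with a bacterial homologue had 17 of 46 lower and a summed ratio of 0.868 (0.864 to 0.873), against 8 of 31 and 0.891 (0.885 to 0.897) for the mitochondria-specific ones. The latter here include Mrps36, Mrps18a and Mrps18b, while the related Mrps18c is counted with the bacterial homologues, so the division is approximate. In HSC/MPP cells the large-subunit ratio was 0.938 (0.900 to 0.977) and the small-subunit ratio 0.926 (0.872 to 0.983), which overlap.

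Mrpl34, the bL34 protein of the large subunit (chr8:71464959-71465747, plus strand), had the lowest CFU-E-stage ratio of the 77. It stood at 55.4 CPM (53.5 to 57.3) in the hypoxia library and 101 CPM (99.2 to 104) in the control, a log2 ratio of -0.77. In the other classes its log2 ratio ran from -0.12 in lymphoid-primed to -0.66 in megakaryocyte-lineage cells, where it was 30.6 against 54.4 CPM. The gene was lower in the hypoxia library in all 10 classes, though the step was small in lymphoid-primed cells (55 UMIs, or 32.97 CPM, against 50 UMIs, or 36.7 CPM).

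Mrps12, the uS12 protein, part of the decoding centre of the small subunit (chr7:28739641-28741820, minus strand), had 53.4 CPM (51.6 to 55.3) and 84.6 CPM (82.5 to 86.7) in CFU-E-stage cells, hypoxia first. Its log2 ratio was -0.58 there, and it lay between -0.40 (HSC/MPP) and -0.77 (early erythroid) in the 10 classes. It was the lowest of the members in granulocyte progenitors, at 48.9 against 74.4 CPM.

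Mrps24, the uS3 protein of the small subunit (chr11:5703983-5715680, minus strand), had 41.4 CPM (39.8 to 43.0) and 70.9 CPM (69.0 to 72.8) in CFU-E-stage cells. It was the lowest member in HSC/MPP cells, at 21.8 CPM (15.3 to 30.2) against 45.9 CPM (36.4 to 57.1), a log2 ratio of -0.81. In early erythroid cells it reached -1.31, with 12 UMIs (17.01 CPM) against 64 UMIs (56.9 CPM). Its exons share 226 bases with Urgcp on the same strand in GENCODE vM21, so some of its molecules could belong to that gene.

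Mrps6, the bS6 protein (chr16:92058270-92112227, plus strand), was also low in the hypoxia library in erythroid cells. It had 21.2 CPM (20.1 to 22.4) and 37.7 CPM (36.4 to 39.1) in CFU-E-stage, 13.4 and 32.1 CPM at globin onset, and 5.65 and 16.8 CPM in globin-high cells. In HSC/MPP cells it had 18.8 and 30.4 CPM, and in monocyte-lineage cells 16.5 and 26.98 CPM. Its log2 ratio was below 0 in each of the 8 classes where it was measured. Its exons share 305 bases with Slc5a3 or Gm49711 on the same strand, so its counts are uncertain.

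In all, 13 of the 69 members measured in all 10 classes had a log2 ratio below 0 in every one (18.8%, against 9.44% of the 5380 genes measured in all 10), and 0 were above 0 in every one (against 10.5%). The classes come from the same 2 libraries, so they are not independent views. Besides Mrpl34, Mrps12 and Mrps24 these were Mrpl16, Mrpl19, Mrpl21, Mrpl45, Mrpl51, Mrps5, Mrps7, Mrps21, Mrps25 and Mrps36. In CFU-E-stage cells Mrps5 stood at 92.7 against 127 CPM (log2 ratio -0.42) and Mrps25 at 59.9 against 82.0 CPM (-0.40). Mrpl45, a membrane-facing large-subunit protein near the exit of the nascent chain, had 70.1 against 99.6 CPM (-0.45), and was lowest of all members in monocyte-lineage cells, at 36.2 against 62.6 CPM. Mrpl51 had 134 against 178 CPM (-0.39) and Mrps7, a protein of the small-subunit head, 59.9 against 79.0 CPM (-0.35). Mrpl16, Mrpl19, Mrpl21 and Mrps21 lay between -0.27 and -0.31 in these cells. Of these 13 genes Mrps36 differed least in CFU-E-stage cells, with 90.8 against 102 CPM (-0.15).

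A few genes went the other way. Mrps9, the uS9 protein (chr1:42851233-42905683, plus strand), had the highest CFU-E-stage ratio, with 61.9 CPM (59.9 to 63.9) in the hypoxia library and 44.6 CPM (43.1 to 46.1) in the control, a log2 ratio of 0.40. It was also the highest member in granulocyte progenitors (49.0 against 35.6 CPM) and in monocyte-lineage cells (49.8 against 28.3 CPM, 0.64). In early erythroid cells its levels were 42.5 and 42.7 CPM. Mrps27, a pentatricopeptide-repeat protein of the small subunit, was higher in all 9 classes where it was measured, from 20.5 against 19.3 CPM at globin onset to 30.9 CPM (23.0 to 40.6) against 17.8 CPM (12.1 to 25.2) in HSC/MPP cells. Its exons overlap those of an antisense gene by 506 bases, and whether counting used strand was not given in the sources used here. Mrpl23, the uL23 protein, was the highest in HSC/MPP cells at 99.9 against 60.2 CPM (0.65), and had 116.8 against 101.6 CPM in CFU-E-stage cells, but 73.1 against 83.7 CPM in lymphoid-primed cells.

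Mrps11 and Mrpl46 are divergent neighbours on chromosome 7, with RefSeq start sites 42 bases apart. In CFU-E-stage cells Mrps11, the uS11 protein, had 32.6 CPM (31.2 to 34.1) in the hypoxia library and 26.0 CPM (24.8 to 27.1) in the control, a log2 ratio of 0.24. Mrpl46, a mitochondria-specific large-subunit protein, had 45.7 CPM (44.0 to 47.4) and 57.6 CPM (55.9 to 59.4), a log2 ratio of -0.28. Mrps11 did not reach 1.2-fold, so the pair differed in the sign of the ratio, with 1 of the pair past that fold. In globin-high cells Mrps11 had 34.5 against 28.6 CPM, again short of 1.2-fold, and Mrpl46 had 44.1 against 58.3 CPM. Their exons overlap by 173 bases on opposite strands. Of the other genes named, Mrpl3, Mrpl51 and Mrps18c share exonic bases with a gene on the same strand. Mrps25 (with Nr2c2), Mrpl19 (with Gcfc2), Mrpl14, Mrpl18, Mrpl21, Mrpl58, Mrps7 and Mrps30 share them with a gene on the other strand. Their counts are uncertain too, but to differing degrees, since the overlap is 4590 bases for Mrps25, 1962 for Mrpl19 and only 2 for Mrpl58.

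The remaining genes at the ends of the order differed by class. In HSC/MPP cells Mrpl58, a peptidyl-tRNA hydrolase that rescues stalled ribosomes, had 14.5 against 29.2 CPM (-0.68) and Mrps33 had 70.2 against 105 CPM (-0.52). Mrpl58 did not reach 1.2-fold in CFU-E-stage cells, at 33.01 against 35.9 CPM. Mrpl11, the uL11 protein, had 50.8 against 36.1 CPM and Mrps28 79.9 against 59.1 CPM in HSC/MPP cells. In CFU-E-stage cells they had 73.4 against 75.4 and 188 against 192 CPM. Granulocyte progenitors also had Mrps16 low (61.0 against 90.9 CPM, -0.51), and Mrpl3 high (101 against 80.8 CPM), while Mrpl50, next in order, did not reach 1.2-fold (83.3 against 68.3 CPM). Monocyte-lineage cells had Mrpl20, the bL20 protein, low (53.5 against 78.6 CPM, -0.48), and Mrpl52 (55.1 against 41.6 CPM) and Mrpl54 (47.3 against 35.7 CPM) high. Mrps18a had 37.8 against 49.8 CPM in CFU-E-stage cells (-0.32), while Mrps30 had 112.8 against 107.8 CPM (0.060), a sign that TMM factors turned (-0.019).

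Along the erythroid stages both libraries showed the same course. Compared with HSC/MPP cells of the same library, the summed level in CFU-E-stage cells was 1.64 times as high in the hypoxia library (1.60 to 1.68) and 1.75 times in the control (1.71 to 1.79). At least 1.2-fold higher were 66 of 77 members in the hypoxia library (27.2% of all genes) and 65 in the control (26.4%), and 61 were so in both (21.8%). Lower were 0 (40.2%) and 1 (42.4%). Against early erythroid cells the sums were 1.56 and 1.52 times as high, with 64 (27.9%) and 59 (25.1%) members higher, 54 of them in both (19.7%), and 1 (35%) and 0 (36%) lower. From CFU-E-stage to globin onset the sum was 0.942 and 0.936 times as high, and from onset to globin-high 0.816 and 0.844.

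In globin-high cells the sum was 0.768 (0.762 to 0.775) and 0.790 (0.779 to 0.802) times that of CFU-E-stage cells. There 54 members were at least 1.2-fold lower in the hypoxia library (35.9% of all genes) and 49 in the control (35%), and 46 in both (30.1%). Higher were 5 (18.7%) and 4 (18.2%), and the 4 in both (15.6%) were Mrpl14, Mrpl28, Mrps18c and Mrps36, named after their values were seen. Depth ran with the stages as well: median UMIs per cell were 9569.5 and 11467 in HSC/MPP, 29229 and 42038 in CFU-E-stage and 18749 and 26019 in globin-high cells. Within 10000 to 40000 UMIs the median log2 difference of CFU-E-stage from HSC/MPP cells was 0.50 (hypoxia) and 0.54 (control), in place of 0.63 and 0.67.

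**Figure D4:**
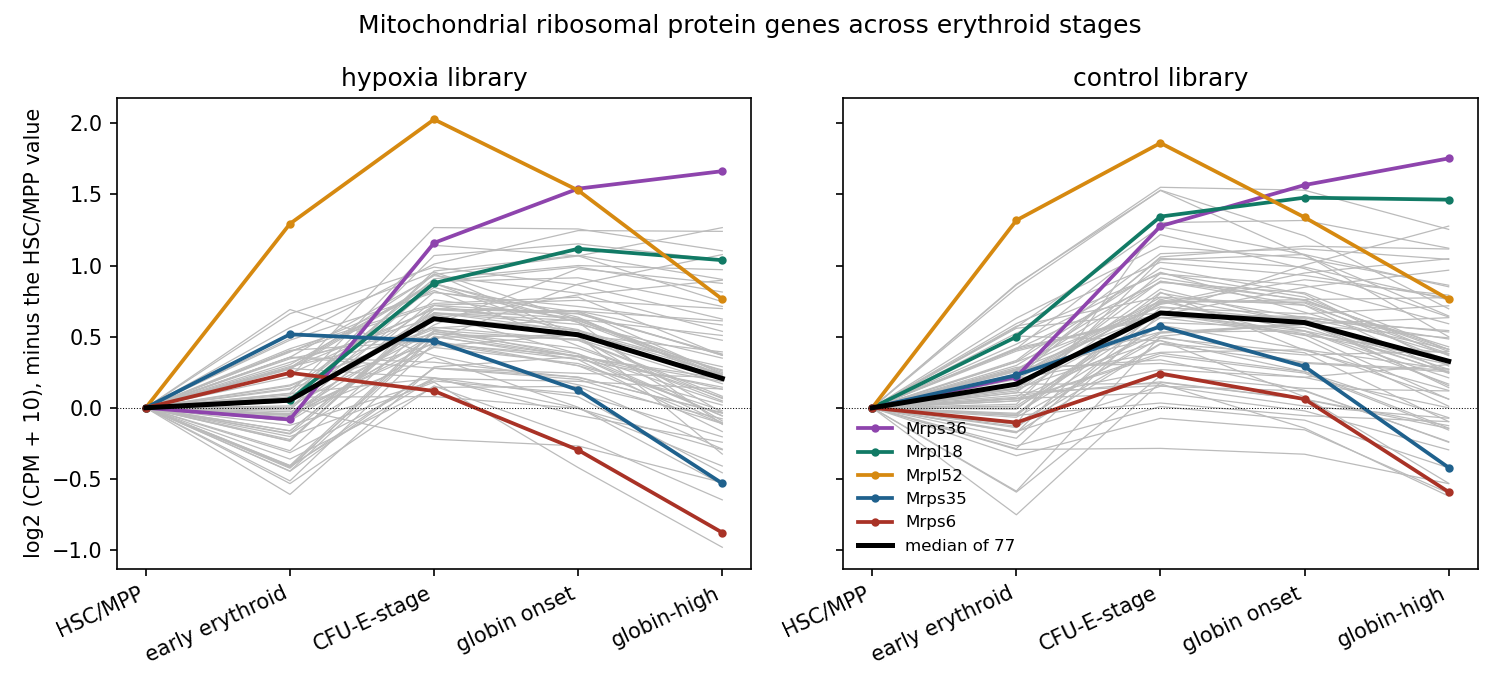
Level of each of the 77 genes (log2 of CPM + 10, y axis) relative to HSC/MPP cells of the same library, across HSC/MPP and the 4 erythroid stages (x axis), with 5 genes in colour and the median in black. In both panels the median is highest in CFU-E-stage cells, while Mrps36 is highest in globin-high cells.

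Mrps36 had the largest rise from early erythroid to globin-high cells. Its level was 32.6, 90.8, 121 and 133 CPM in the 4 stages of the hypoxia library and 43.6, 102, 127 and 146 CPM in the control, so each stage was above the one before. The gene lies at chr13:100735955-100744659 (minus strand), and its promoter above held none of the letters searched. The next largest were Mrpl20 (42.5 to 93.9 CPM in the hypoxia library, 48.9 to 129 in the control), Mrps21 (48.2 to 124, and 69.4 to 127), Mrpl18 (130.4 to 268, and 174 to 348), Mrps18c (80.8 to 169.9, and 99.7 to 187) and Mrpl46 (21.3 to 44.1, and 25.8 to 58.3). Mrpl18, the uL18 protein, which has a cytosolic form after heat shock, was lower in the hypoxia library in CFU-E-stage cells, at 238 against 319.7 CPM.

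The largest falls over the same stages were those of Mrps35, Mrps6, Mrps27, Mrpl52, Mrps2 and Mrpl39. Mrps35 went from 97.8 to 42.1 CPM in the hypoxia library and from 70.3 to 41.2 CPM in the control. Mrps6 went from 24.1 to 5.65 and from 27.6 to 16.8 CPM, and Mrps27 from 25.5 to 10.7 and from 20.5 to 9.22 CPM. Mrps2, the uS2 protein, went from 45.4 to 29.4 and from 67.6 to 42.1 CPM, and Mrpl39 from 63.8 to 33.3 and from 58.7 to 46.4 CPM. Mrpl52 had another course, with 48.4 and 52.2 CPM in HSC/MPP, 133 and 145 in early erythroid, 228 and 216 in CFU-E-stage and 89.2 and 95.5 CPM in globin-high cells. In granulocyte progenitors it had 32.3 and 30.1 CPM, so its peak in CFU-E-stage cells stood out in both libraries and did not reach 1.2-fold between them.

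Genes that work with the mitochondrial ribosome differed among themselves. Their counts in CFU-E-stage cells stand against the 8.8% of all genes that were lower and the 15% that were higher. Mitochondrial transcription genes had a median log2 ratio of -0.15 there, close to the members' -0.16, with 1 of 7 lower, 0 higher and a summed ratio of 0.896. At globin onset their median was also -0.15, and in globin-high cells -0.19. The likeness did not hold in every class: in HSC/MPP cells their median was 0.27, beside -0.13 for the members. Over the 10 classes their median ran from -0.26 to 0.27. In CFU-E-stage cells, 15 translation factors had 2 lower and 2 higher and a summed ratio of 0.989. Of 20 mitochondrial tRNA ligase genes 0 were lower and 3 higher (ratio 1.08), and of 21 assembly and rRNA modification genes 2 were lower and 1 higher (0.917, median log2 ratio -0.12). The 5 ribosome proteins with other names, such as Dap3, had 1 lower and 1 higher and a summed ratio of 1.06, against 0.877 for the members. Over the 10 classes their summed ratio ran from 0.859 to 1.058. The 13 mRNAs encoded in mitochondria summed to a ratio of 1.10, with 4 at least 1.2-fold higher, 0 lower and 9 between. Their summed ratio was above 1 in each of the 10 classes (1.015 to 1.198). Nuclear oxidative phosphorylation genes had 11 of 80 lower, 4 higher and a ratio of 0.959, with Atp5g1 past 1.5-fold at 382 against 584 CPM. Cytosolic ribosomal protein genes had 17 of 80 lower and 4 higher, with a ratio of 0.951. Rpl30 (1351 against 2086 CPM) was past 1.5-fold lower, as it was in HSC/MPP, granulocyte progenitor and monocyte-lineage cells. In monocyte-lineage cells 57 of 79 cytosolic ribosomal protein genes were at least 1.2-fold lower (14.7% of all genes) and the list's ratio was 0.777, beside 0.964 for the members. Outside CFU-E-stage cells Atp5g1 and Atp5e were also past 1.5-fold lower in granulocyte progenitors and monocyte-lineage cells. So was Cox6a2 in monocyte-lineage cells (7.17 against 17.8 CPM). Past 1.5-fold higher were mt-Atp8 (184.6 against 115.3 CPM) and Atp5s (24.8 against 12.04 CPM) in HSC/MPP cells, and Taco1 (13.9 against 5.03 CPM) in monocyte-lineage cells. Cox6a2, Atp5s and Taco1 thus rest on low levels. The differences between these lists and the members were not tested.

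The lists also differed along the stages. Nuclear oxidative phosphorylation genes were 1.66 times as high in CFU-E-stage as in HSC/MPP cells in both libraries, where the members were 1.64 and 1.75 times as high. They held 0.956 (hypoxia) and 0.943 (control) of the CFU-E-stage level in globin-high cells, where the members held 0.768 and 0.790. Cytosolic ribosomal protein genes were at 1.02 and 0.997 of the HSC/MPP level in CFU-E-stage cells. Translation factors, at 0.698 and 0.693, and mitochondrial transcription genes, at 0.600 and 0.620 of the CFU-E-stage level in globin-high cells, were lower there than the members. Cell-cycle genes also differed between the libraries in some classes. In HSC/MPP cells all 10 G2/M genes were at least 1.2-fold lower in the hypoxia library (18.2% of all genes), while 5 of 12 S phase genes were higher (20.6%) and 1 was lower. Early erythroid cells, with the lowest member median, had 6 of 9 G2/M and 6 of 11 S phase genes lower (24.6%) and 0 higher (23.2%). In basophil and mast cells 8 of 10 G2/M genes were higher (19.9%), and in megakaryocyte-lineage cells 10 of 12 S phase genes were lower (17.4%). Monocyte-lineage cells had 5 of 10 G2/M genes higher (21.8%) and 0 lower (14.7%). In CFU-E-stage cells 2 of 10 G2/M genes were lower and 1 higher, with 0 of 12 S phase genes in either direction. Their part in the member values was not tested.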

How the data were processed

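Single-cell transcriptomes of 2 libraries were used, 1 hypoxia and 1 control. The authors' deposited values are counts of UMIs, with the pipeline's RSEC correction of UMI errors. Per the file headers they came from the BD WTA Rhapsody Analysis Pipeline, version 1.7.1, and the reference was GRCm38 (GENCODE vM19 annotation). The submitters' processing notes also name Bowtie2. The tables held 6406 cells with 137504361 UMIs and 3956 cells with 121415081 UMIs, of which 771288 and 803512 UMIs were in member genes. The cell-calling step was not given in the sources used here.

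Cells with 20% or more mitochondrial UMIs (14 and 6) and doublets called by Scrublet in scanpy 1.11.5 (seed 0; 112 and 33) were removed. Scrublet marked 1.75% and 0.834% of cells. Gates on marker genes used UMIs per 10000 of a cell, with cutoffs set on the gating genes only. Cells passing several gates (344 and 137) or none (828 and 589) were left out, as were classes under 50 cells in a library (eosinophil, B and T/NK/ILC). Class names are those of the gates rebuilt here. UMIs were summed per class and scaled to CPM. Ratios add 10 CPM, so they understate the differences of low genes. With 1 library per group no test was run, and exact 95% intervals treat UMIs as independent. The calculation of ratios and intervals was run on simulated counts, drawn as Poisson from the class means. In CFU-E-stage cells (11529 genes) the interval held the true fold for 92% of 100 genes moved 1.2-fold and 96% of 100 moved 1.5-fold. Such draws hold no spread between cells, mice or libraries. They check the calculation only, and cannot tell how well the intervals cover these data. Positions and overlaps come from GENCODE vM21 (GRCm38).

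The genes, lists and alternatives were chosen with earlier results of these data known. Named are, in HSC/MPP, CFU-E-stage, granulocyte progenitor and monocyte-lineage cells, the 4 highest and 4 lowest members. The 6 largest rises and 6 largest falls from early erythroid to globin-high cells, with the same sign in both libraries, were added. So were members measured in all 10 classes with 1 sign in every one, and Mrps18a, Mrps30 and Mrps36. The rule also names genes of the other lists past 1.5-fold, of which those of the stress and cell-cycle lists are given only as sums and counts. Not every gene of the other lists that this rule names is reported here. Alternatives were gate cutoffs doubled or halved, all deposited cells, another total, the mean of per-cell CPM, assignment by marker score, TMM factors (edgeR 4.0.16), 1 CPM added, no minimum of UMIs and, chosen after seeing the data, a depth window, shared indices left out and an upper limit on globins.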

Additional observations from a re-analysis of the deposited data

How the results depend on the processing

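No paired analysis was possible because each group had 1 library, and no library could be left out. Of 533 recomputed values of classes and stages, 479 stayed within their tolerance (the counting interval, or 1.5 times for a count) and 54 moved; of 484 recomputed log2 ratios of named genes 454 stayed, 30 moved and 1 changed sign, that of Mrps30 in CFU-E-stage cells under TMM factors (-0.019). The causes were not tested. In the values below, a count is of members at least 1.2-fold higher unless called lower, and a sum is the summed ratio of hypoxia over control. A percentage after a count is the share of all genes called the same way in that setting. Where none stands beside a count, the share was not computed for it. TMM factors gave a count of 1 in CFU-E-stage (10.8%) and 1 in globin onset cells (14.6%), and all deposited cells 1 in CFU-E-stage cells. Cells of 10000 to 40000 UMIs, chosen after seeing the data, gave HSC/MPP cells a median of -0.015 and a sum of 0.972, granulocyte progenitors a sum of 0.971, and CFU-E-stage and globin onset cells sums of 0.914 each. The counts there were 5 in lymphoid-primed cells (22.8%) and 5 in granulocyte progenitors (13.1%). They were 9 in basophil and mast cells (21.8%) and 1 in globin-high cells (24%). The same cells gave CFU-E-stage against HSC/MPP medians of 0.50 (hypoxia) and 0.54 (control), and against early erythroid cells a control median of 0.38 with 1 lower. Doubled gate cutoffs gave sums of 0.870 at globin onset and 0.835 in globin-high cells, counts of 6 in megakaryocyte-lineage and 5 in globin-high cells, a control median of 0.75 and 1 lower in the hypoxia library for CFU-E-stage against HSC/MPP, and a hypoxia median of -0.48 for globin-high against CFU-E-stage. Halved cutoffs gave monocyte-lineage cells a median of -0.13 and a sum of 0.925, globin onset a sum of 0.896 and a count of 1, and globin-high cells a count of 2. They also gave a hypoxia median of 0.42 with 0 lower for CFU-E-stage against early erythroid, 0 lower in the control against HSC/MPP, and a hypoxia median of -0.30 for globin-high against CFU-E-stage. Assignment by the highest marker score gave granulocyte progenitors a sum of 0.968 and counts of 8 in basophil and mast and 5 in megakaryocyte-lineage cells. The mean of per-cell CPM gave megakaryocyte-lineage cells a median of 0.15, a count of 27, 3 lower and a sum of 1.14. It gave sums of 0.906 in early erythroid, 0.872 in CFU-E-stage and 0.894 in globin-high cells, the last with a median of -0.12, a count of 1 in CFU-E-stage cells, 0 lower in the hypoxia library against early erythroid cells and a control median of 0.77 against HSC/MPP. With 1 CPM added the counts were 5 in granulocyte progenitors and 9 in basophil and mast cells, and the CFU-E-stage against HSC/MPP medians 0.73 and 0.79. A total without globin, mitochondrial and ribosomal genes gave monocyte-lineage cells a median of -0.13 and a sum of 0.927, basophil and mast cells a sum of 0.933, and 2 lower for CFU-E-stage against early erythroid in the hypoxia library. Under 50 cells remained, and no value was taken, for megakaryocyte-lineage cells in the depth window and for early erythroid cells in the depth window, with doubled cutoffs or by marker score. Depth limits single genes in HSC/MPP and early erythroid cells, where Mrps24, for one, rests on 36 and 12 UMIs in the hypoxia library.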
